A study of Mus musculus with 6 samples.

Results

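Genes for protein folding in the endoplasmic reticulum (ER) and for the unfolded protein response were followed in C2C12 myotubes kept in 100 nM insulin for 48 h and in untreated C2C12 myotubes. C2C12 myoblasts, from mouse muscle, differentiate into multinucleated myotubes in low serum. All values come from 1 cell line in culture. The 33 genes were taken by name, as the probe sets of the array whose annotation holds exactly 1 symbol and that symbol is a member. This gave 442 probe sets of 241576 on the array, and 33 genes of 20416.

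There were 3 insulin arrays and 3 control arrays, which the labels call biological replicates. Both groups were raised in medium with 10% fetal bovine serum and then switched to 2% horse serum, which starts differentiation. Myotubes of days 4 to 7 after that switch were taken, and their medium was renewed every 24 h. Per the labels, the insulin exposure was meant to bring the cells into insulin resistance. RNA of 25 ng per sample was amplified before labelling.

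The ER is where secreted and membrane proteins enter, fold, gain disulfide bonds and sugars, and are checked before export. When unfolded proteins build up, 3 sensors in its membrane, encoded by Ern1 (IRE1), Eif2ak3 (PERK) and Atf6, start the unfolded protein response. IRE1 cuts the Xbp1 mRNA so that an active transcription factor is made, ATF6 is cleaved to release another, and PERK slows translation and favours ATF4 and CHOP. XBP1 and ATF6 raise chaperones, oxidoreductases and the machinery that sends misfolded proteins to the proteasome, known as ER-associated degradation. In muscle the same membrane system also forms the sarcoplasmic reticulum, the calcium store for contraction.

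XBP1 and cleaved ATF6 act with the CCAAT-binding factor NF-Y at the ER stress response element (ERSE), CCAAT followed after 9 bases of any kind by CCACG. The element is shown first because it is the best known site of this branch. RefSeq promoters (assembly GRCm38.p6, 250 bases before to 50 after each annotated start) were found for 28 of the 33. The exact ERSE, searched on both strands, lay in the promoters of 10 of these 28 genes (35.7%), against 37 of 27025 genes (0.137%) in the whole table. Hsp90b1 held 2 copies. In the lines below the CCAAT and CCACG blocks are in capitals and the spacer of 9 bases is in lower case, read 5′ to 3′ on the strand that carries the match.
Calr, chr8:84847075-84847093, plus strand: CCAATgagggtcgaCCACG
Canx, chr11:50325800-50325818, minus strand: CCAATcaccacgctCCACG
Creld2, chr15:88819520-88819538, minus strand: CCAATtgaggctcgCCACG
Derl3, chr10:75893242-75893260, minus strand: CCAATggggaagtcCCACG
Dnajc3, chr14:118937827-118937845, plus strand: CCAATcagcgccaaCCACG
Ero1lb (Ero1b), chr13:12565682-12565700, minus strand: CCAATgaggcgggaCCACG
Hsp90b1, chr10:86705638-86705656, minus strand: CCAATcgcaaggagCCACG
Hsp90b1, chr10:86705533-86705551, plus strand: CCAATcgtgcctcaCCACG
Hspa5, chr2:34772025-34772043, plus strand: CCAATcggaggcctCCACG
Pdia6, chr12:17266491-17266509, plus strand: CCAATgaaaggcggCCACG
Syvn1, chr19:6046532-6046550, plus strand: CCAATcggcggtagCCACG

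The promoters of Hspa5, of Ero1l (now Ero1a) and of Edem1 are given whole. Hspa5 encodes BiP, the textbook target of the response, and the other two are the members that changed most on these arrays. Capitals mark the ERSE, its CCACG block and ACGTG, the core that hypoxia-inducible factors bind, on either strand.
Hspa5, chr2:34771840-34772139, plus strand: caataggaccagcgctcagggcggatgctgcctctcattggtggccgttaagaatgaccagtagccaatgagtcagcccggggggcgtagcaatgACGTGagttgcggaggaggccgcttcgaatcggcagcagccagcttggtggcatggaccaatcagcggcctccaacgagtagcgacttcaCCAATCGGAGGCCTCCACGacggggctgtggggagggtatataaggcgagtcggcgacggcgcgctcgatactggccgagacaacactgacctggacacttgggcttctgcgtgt
Ero1l, chr14:45318523-45318822, minus strand: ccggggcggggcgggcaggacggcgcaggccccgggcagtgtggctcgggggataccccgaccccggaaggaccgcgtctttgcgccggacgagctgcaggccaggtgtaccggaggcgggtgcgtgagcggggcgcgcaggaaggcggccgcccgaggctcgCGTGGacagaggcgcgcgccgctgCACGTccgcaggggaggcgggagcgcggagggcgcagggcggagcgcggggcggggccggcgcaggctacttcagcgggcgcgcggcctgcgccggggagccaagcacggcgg
Edem1, chr6:108828391-108828690, plus strand: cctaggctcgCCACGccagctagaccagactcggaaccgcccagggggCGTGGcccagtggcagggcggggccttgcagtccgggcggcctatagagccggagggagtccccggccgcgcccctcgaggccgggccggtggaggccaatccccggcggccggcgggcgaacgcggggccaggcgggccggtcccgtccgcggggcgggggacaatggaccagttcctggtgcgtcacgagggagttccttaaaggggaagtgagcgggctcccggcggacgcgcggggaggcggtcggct
In Hspa5 the ERSE spans positions -65 to -47 from the annotated start. The Ero1l window held no ERSE, 1 CCACG block and 1 ACGTG, at positions -63 to -59. ACGTG lay in 12 of the 28 member promoters (42.9%) and in 21.8% of all genes, and CCACG in 24 of 28 (85.7%) and in 35.5% of all genes. The ERSE contains the CCACG block, so these counts overlap. The XBP1 element TGACGTGG was found in none of the 28 windows and in 0.714% of all genes, and TGATGCAA, a core of ATF4 sites, in Herpud1 alone among the members and in 1.03% of all genes. A match describes these letters in this window and is not evidence of binding.

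All values below are the authors' RMA values on a log2 scale, on which a step of 1 is a doubling. A gene's level on an array is the median of its probe sets, and its change is insulin minus control. Levels of different genes were not compared with each other, since probes differ in brightness. All 33 members lay above the filter on dim genes, at 7.05, and entered the fit. The test was limma with Benjamini-Hochberg adjustment over the 14291 genes tested, at an adjusted p of 0.05. In bulk RNA, fewer cells of a type and less RNA per cell cannot be told apart.

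Of the 33 genes 4 rose (12.1%), 1 fell (3.03%) and 28 did not pass limma's test. Over all tested genes 9.56% rose and 6.35% fell, so the share of members called, 15.2%, was near the 15.9% of all genes. Limma's unadjusted p was under 0.05 for 9 of the 33 and for 4272 of the 14291 tested genes. Counts of genes at that level below stand beside this background. Without any 1 array other than control 3, 2 members rose and none fell. Ero1l rose 3.06-fold and Edem1 1.58-fold. The other calls were small, with Edem2 and Sec61b higher and Os9 lower by about as much. The median change of the 33 was 0.05 on the log2 scale, beside -0.003 over all tested genes. All 3 insulin arrays lay above all 3 controls for 10 members (30.3%), as for 20.0% of all tested genes, and below them for 5 members (15.2%), as for 15.7% of all.

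**Figure D1:**
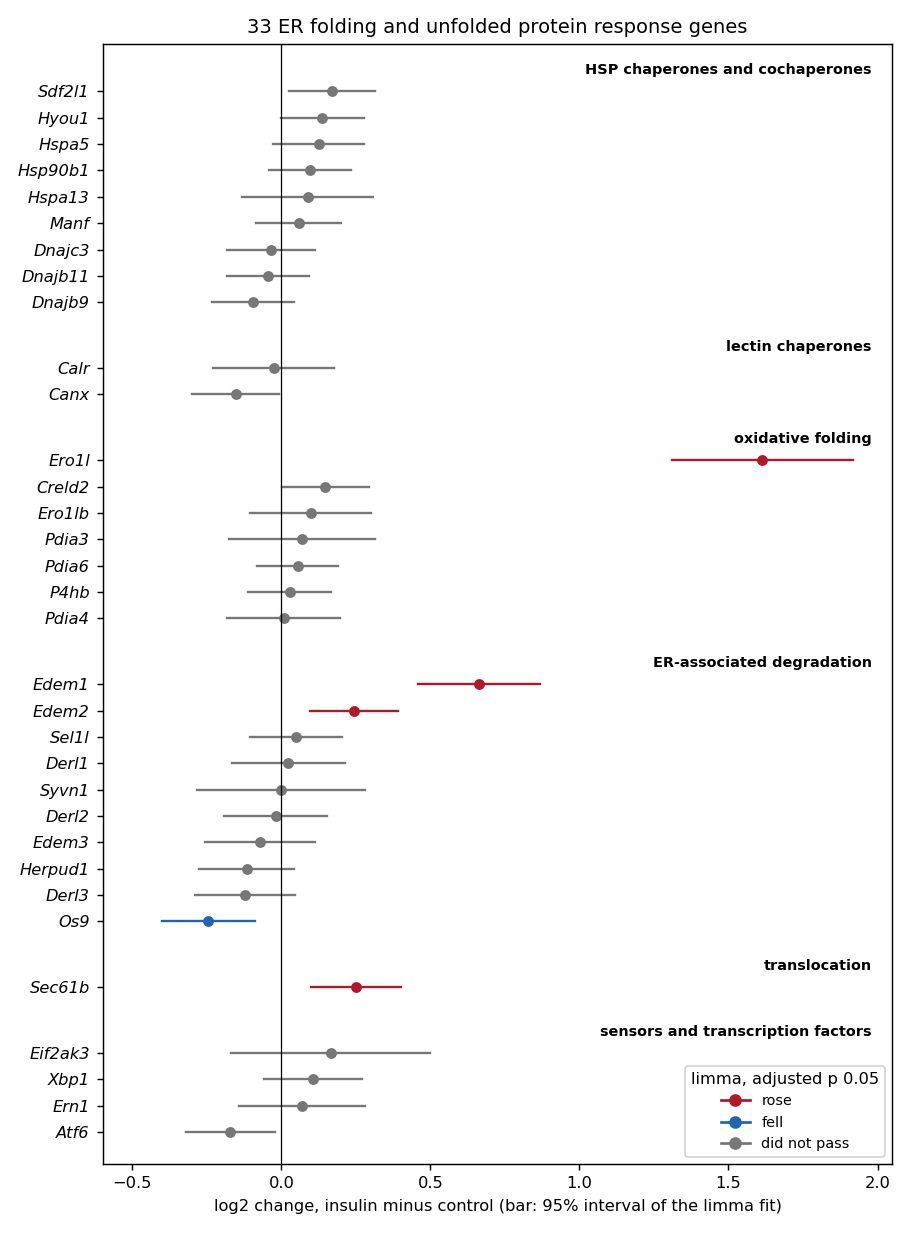
Log2 change, insulin minus control, of the 33 genes by role, with points for the limma estimate from 3 arrays per group and bars for its 95% interval. Ero1l at 1.61 and Edem1 at 0.66 stand to the right, while the 28 genes that did not pass lie between -0.17 and 0.17.

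The ER's HSP-type chaperones and their partners showed small differences, and none of the 9 passed limma's test (1 had an unadjusted p under 0.05). Hspa5 encodes BiP, the HSP70 of the ER, which binds unfolded chains and holds the sensors inactive. Its level was 13.38, 13.37 and 13.35 on the insulin arrays, against 13.16, 13.31 and 13.27 on the control arrays. The insulin arrays all lay above the controls, by 0.12 on average (SE 0.066, limma adjusted p = 0.255). The 95% interval of that difference ran from 0.98-fold to 1.21-fold. The sign depended on the summary, since the mean of the Hspa5 probe sets differed by -0.05 and the brightest one by 0.02.

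Hsp90b1, the ER's HSP90 (GRP94), had levels of 13.30, 13.36 and 13.33 with insulin, against 13.22, 13.24 and 13.25 in controls. The groups did not overlap, with a difference of 0.10 (limma adjusted p = 0.337). Hyou1, a large HSP70 relative that exchanges BiP's nucleotide, differed by 0.14 (adjusted p = 0.175) and also had all insulin arrays on top. Sdf2l1, a small BiP partner that is among the steepest responders to ER stress, stood at 10.22, 10.22 and 10.14 with insulin, against 10.01, 10.07 and 10.00 in controls. It was the member of the group with the unadjusted p under 0.05, and its difference of 0.17 had an adjusted p of 0.109.

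The J-domain partners of BiP had small negative differences as the median of their probe sets. Dnajb9 (ERdj4), which restrains IRE1, differed by -0.09, with all 3 insulin arrays below the controls. Dnajb11 (ERdj3) and Dnajc3 (p58IPK, an inhibitor of PERK) differed by -0.04 and -0.03, with overlapping groups. The sign of Dnajc3 depended on the summary, since the mean of its probe sets differed by 0.04. Manf, a secreted protein kept in the ER by BiP, differed by 0.06, and Hspa13, an HSP70-like protein of microsomes, by 0.09. None of these 5 passed limma's test (adjusted p from 0.341 to 0.770).

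Averaged over the 9 genes, each gene taken relative to its own mean over the 6 arrays, the insulin arrays stood at 0.030, 0.027 and 0.026. The controls stood at -0.071, -0.005 and -0.008 on the same scale. The lowest of the 6 was control 1, and the other 2 controls lay between it and the insulin arrays.

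Of the lectin chaperones, which hold glycoproteins by their sugars, neither Canx nor Calr passed. Canx (calnexin, in the membrane) had 13.05, 13.03 and 12.95 with insulin, against 13.18, 13.13 and 13.17 in controls. The groups did not overlap, with a difference of -0.15 and a limma adjusted p of 0.152. Calr (calreticulin, its soluble counterpart) differed by -0.03 with overlapping arrays.

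Among 7 genes of oxidative folding, in which disulfide bonds are made and reshuffled, Ero1l rose and the other 6 did not pass. Ero1l encodes the oxidase ERO1A, which takes electrons from protein disulfide isomerase and passes them to oxygen. Its level was 10.95, 10.99 and 10.87 on the insulin arrays, against 9.02, 9.37 and 9.58 on the controls. The lowest insulin array lay more than 1 log2 unit above the highest control, and the controls spread more (SD 0.285) than the insulin arrays (SD 0.058). The change was 1.61 (SE 0.132), or 3.06-fold with a 95% interval of 2.48-fold to 3.77-fold, and limma's adjusted p was 4.88e-04. By size of change Ero1l was number 13 of the 14291 genes.

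The rise was seen in every probe set of the gene, whose positions the annotation used here does not give. Probe sets of a gene share the same 6 arrays and are not separate replicates. All 17 Ero1l probe sets were higher with insulin, and 15 passed when each probe set was tested by itself. Of all probe sets tested 3.43% rose. Their changes ran from 0.32 to 2.04, and the lowest came from the last probe set in identifier order, whose mean level over the 6 arrays (11.14) was the second highest. Another 11 probe sets carry Ero1l together with the ribosomal protein gene Rpl31 and were left out as ambiguous.

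Ero1lb (now Ero1b), the paralogue best known from the pancreas, had 8.03, 8.20 and 8.19 with insulin, against 8.16, 8.06 and 7.91 in controls. These groups overlapped and the gene did not pass (0.10, limma adjusted p = 0.511). The level of Ero1l minus that of Ero1lb averaged 2.80 ± 0.12 with insulin and 1.28 ± 0.41 in controls (SD, n = 3 each), a difference of 1.52. The exact two-sided permutation test of this difference gave p = 0.1, the smallest that 3 against 3 arrays allow, and 0.1 after adjustment over the 2 paralogue comparisons made. The difference was 1.27 when each gene was taken from its probe sets above that filter. Taken from each gene's brightest probe set, the difference was 0.90. The changes were then 1.33 for Ero1l and 0.43 for Ero1lb, which again did not pass (limma adjusted p = 0.247).

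The disulfide isomerases of the PDI family did not pass. P4hb (PDI itself) differed by 0.03, Pdia3 (ERp57, the partner of calnexin and calreticulin) by 0.07, Pdia4 by 0.01 and Pdia6 by 0.05 (limma adjusted p from 0.597 to 0.961). P4hb had 13.42, 13.43 and 13.40 with insulin, against 13.36, 13.38 and 13.43 in controls, so its arrays overlapped. Creld2, a stress-induced ER protein with isomerase activity, had 11.91, 11.94 and 11.84 with insulin, against 11.72, 11.74 and 11.78 in controls. Its groups were apart but the difference of 0.15 did not pass (adjusted p = 0.164).

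**Figure D2:**
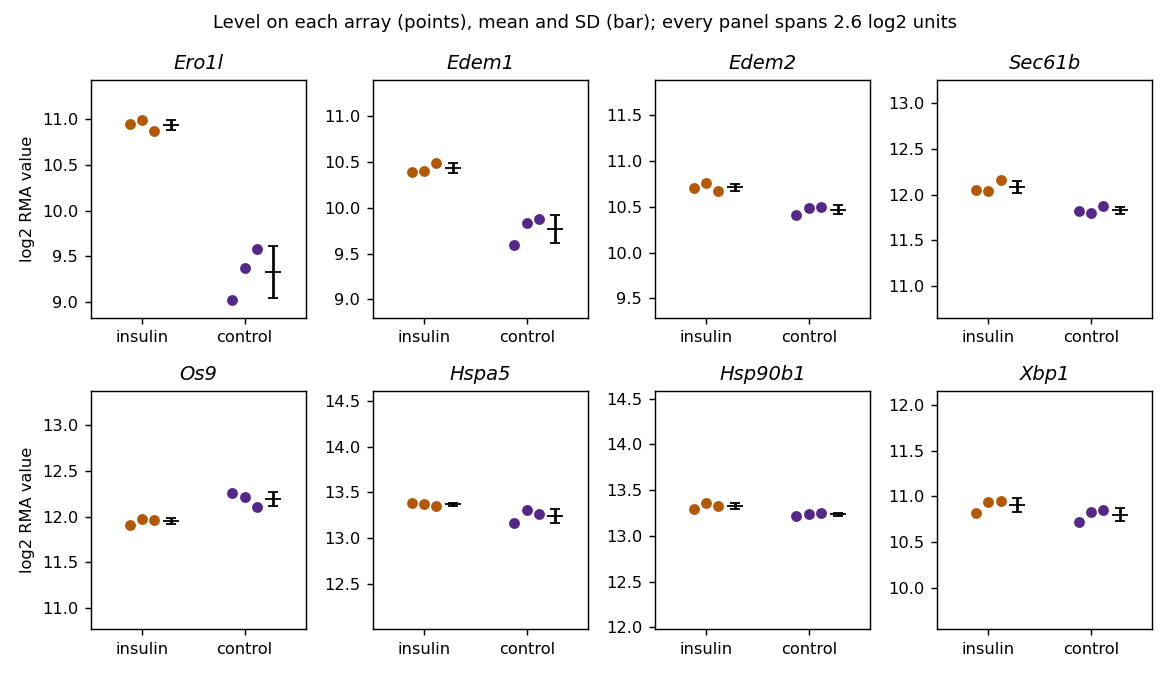
Log2 RMA value of 8 genes on each of the 3 insulin and 3 control arrays (points), with the mean and SD of each group (black), every panel spanning the same range. Ero1l and Edem1 show wide gaps between groups, Edem2, Sec61b and Os9 narrow ones, and in Xbp1 the groups overlap.

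Of 10 genes of ER-associated degradation 2 rose and 1 fell, where 9.56% and 6.35% of all tested genes did, and the calls of Edem2 and Os9 were lost without most single arrays. Edem1 encodes a lectin that picks trimmed glycoproteins for removal. Its level was 10.39, 10.41 and 10.49 with insulin, against 9.59, 9.84 and 9.88 in controls. Every insulin array lay above every control, and the change was 0.66 (SE 0.089, 1.58-fold, limma adjusted p = 0.00314). All 13 of its probe sets were higher and 6 rose by themselves. Ero1l and Edem1 together held 21 of the 23 member probe sets that rose.

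Edem2, a mannosidase of the same family that starts the trimming, had 10.70, 10.76 and 10.67 with insulin, against 10.41, 10.49 and 10.50 in controls. It rose by 0.24 (SE 0.064, limma adjusted p = 0.0364), and 11 of its 13 probe sets were higher, though none passed by itself. The call was lost without any 1 array other than control 3 (adjusted p from 0.0690 to 0.131). With its brightest probe set the change was 0.05.

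Edem3, the third of the family, did not pass as the median of its probe sets (-0.07, limma adjusted p = 0.605). Of its 21 probe sets 20 were lower with insulin, though none passed by itself. The median of the probe sets' own changes was -0.28. When its probe sets were averaged in place of the median, Edem3 fell by 0.28 (adjusted p = 0.00558). The call for Edem3 thus depended on how its probe sets were summarised.

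The level of Edem1 minus the mean of Edem2 and Edem3 averaged -0.24 ± 0.06 with insulin and -0.81 ± 0.12 in controls (SD, n = 3 each). The difference of 0.58 had an exact two-sided permutation p of 0.1, the smallest possible here, and 0.1 after adjustment over both paralogue comparisons.

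Os9, a lectin that hands glycoproteins to the ubiquitin ligase complex, had 11.91, 11.97 and 11.97 with insulin, against 12.26, 12.22 and 12.11 in controls. It fell by 0.24 (SE 0.067, limma adjusted p = 0.0437). All 15 of its probe sets were lower, and none passed by itself, where 1.44% of all probe sets fell. The call was lost without any 1 array other than control 3 (adjusted p from 0.0850 to 0.136), and with the brightest probe set (-0.14, adjusted p = 0.227).

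The ligase complex itself did not pass. Syvn1 (HRD1, the ubiquitin ligase) differed by -0.001 and Sel1l, its adaptor, by 0.05. The derlins, which help substrates through the membrane, differed by 0.02 (Derl1), -0.02 (Derl2) and -0.12 (Derl3). Herpud1, a stress-induced scaffold of the complex, had 11.64, 11.68 and 11.70 with insulin, against 11.89, 11.75 and 11.73 in controls. Its insulin arrays all lay below the controls, with a difference of -0.12 (adjusted p = 0.311).

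Sec61b, a subunit of the channel through which new proteins enter the ER, had 12.05, 12.04 and 12.15 with insulin, against 11.82, 11.80 and 11.87 in controls. It rose by 0.25 (SE 0.066, limma adjusted p = 0.0365), with all 8 probe sets higher and 1 rising by itself. Of the 8 probe sets 2 have identifiers outside the run of the other 6, and their changes were 0.26 and 0.25. The call was lost without any 1 array other than control 3 (adjusted p from 0.0637 to 0.128).

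None of the 4 sensor and transcription factor genes passed limma's test, with an unadjusted p under 0.05 for Atf6. Xbp1 had 10.82, 10.94 and 10.95 with insulin, against 10.72, 10.83 and 10.85 in controls, a difference of 0.11 with overlapping groups (adjusted p = 0.370). The mean of the Xbp1 probe sets differed by 0.01 and the brightest one by -0.09. Atf6 had 11.32, 11.36 and 11.25 with insulin, against 11.53, 11.46 and 11.45 in controls. Its groups did not overlap, 15 of its 16 probe sets were lower, and its difference was -0.17 (adjusted p = 0.120). Averaging its probe sets in place of the median made Atf6 pass (-0.16, adjusted p = 0.0477).

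Ern1 differed by 0.07 (adjusted p = 0.672), with 19 of its 23 probe sets higher and 1 rising by itself. Eif2ak3 had 10.09, 9.64 and 9.79 with insulin, against 9.76, 9.41 and 9.85 in controls, so the groups overlapped (0.16, adjusted p = 0.50). Yet 14 of its 17 probe sets were higher, though none passed by itself, and the median of the tested probe sets' changes was 0.33. When its probe sets were averaged, Eif2ak3 rose by 0.28 (adjusted p = 0.00835), and with its brightest by 0.33 (adjusted p = 0.0408). Splicing of Xbp1, cleavage of ATF6 and phosphorylation of PERK's substrate are the active steps of these branches, and none of them was measured here.

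**Figure D3:**
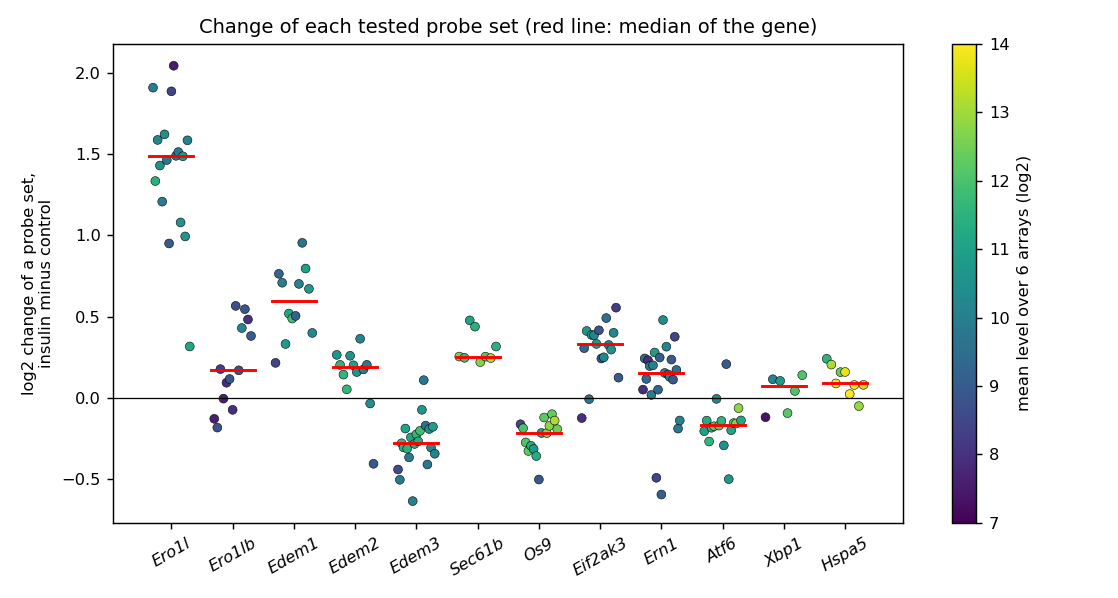
Log2 change, insulin minus control, of each tested probe set of 12 members in identifier order, coloured by mean level over the 6 arrays, with a red line at the gene's median. Every Ero1l and Edem1 probe set lies above 0, all of Os9 and all but 1 of Edem3 lie below 0, and most of Eif2ak3 lie above 0.

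For the 28 genes that did not pass, limma's 95% intervals all lay within 1.5-fold in either direction. The widest reach was that of Eif2ak3, up to 1.41-fold. These intervals are for the median of a gene's probe sets, and the probe sets of Eif2ak3 and Edem3 show that other summaries can lie further out. Spread among replicates was small: the median residual SD was 0.059 for members and 0.10 for all tested genes.

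The calls also differed by brightness, through 2 genes. Of 153 member probe sets with a mean level of 12 or more none passed limma's test, against 3.55% of all probe sets that bright. Of 268 dimmer ones 23 passed, or 8.58%, against 5.05% of all. All probe sets of Ero1l and Edem1 were among the dimmer ones, and without these 2 genes 2 of 239 passed (0.837%). The brightest value in the table was 14.6, and the brightest Hsp90b1 probe set had a mean of 14.03. Whether these probe sets could register a rise was not tested.

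Among the 421 member probe sets tested, 23 rose (5.46%) and none fell, where 3.43% and 1.44% of all probe sets did. At an unadjusted p under 0.05, 67 were higher and 28 lower. Without Ero1l and Edem1, 2 of 392 rose (0.510%), and at the unadjusted level 39 were higher and 28 lower. The share of all probe sets at the unadjusted level was not counted. Limma's diffSplice F test, which asks whether probe sets of a gene changed unequally, called Ero1l (adjusted p = 9.94e-05) and no other member, and 3.34% of 15137 genes. In simulated data 47.2% of that test's calls were false. The simulation shifted 1 probe set in each of 200 genes and gave every probe set independent noise, so its shares may not hold for these arrays. A test of each probe set relative to its gene had 3.88% false calls in the same simulation. On the real arrays it called no member (2 had an unadjusted p under 0.05) and 0.0595% of all genes, with an adjusted p of 0.339 for Ero1l.

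The promoters with an ERSE gave a group chosen by sequence. None of the 10 members with an ERSE passed limma's test (2 had an unadjusted p under 0.05), and their median change was 0.03, with a range from -0.15 in Canx to 0.15 in Creld2. None of the 5 called members was among them. Of the other 27 genes with an ERSE, 14 were on the array and 10 were tested, among which Hnrnpa3, an RNA-binding protein, rose by 0.32. Over all 20 tested genes with an ERSE, 1 rose and none fell, with a median of -0.003. Among all tested genes 9.56% rose and 6.35% fell, and 4272 of 14291 had an unadjusted p under 0.05. No difference from that background is claimed for groups this small.

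Neighbouring lists of the secretory pathway had between 0 and 19.2% of their tested genes called, beside 15.9% of all tested genes. In the translocon, signal peptidase and oligosaccharyltransferase list 3 of 33 genes rose and 1 fell, with a median of 0.07. Stt3b, a catalytic subunit that attaches sugars, rose by 0.38, Sec61a1, the channel's main subunit, by 0.30 and Srp72, of the signal recognition particle, by 0.25. Tram2, which works with the channel in collagen synthesis, fell by 0.42. Of 19 other disulfide isomerases and oxidases 1 rose (Txndc11, 0.33) and 2 fell (Txndc16, -0.33, and Tmx4, -0.26), with a median of 0.09.

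Of 26 further genes of ER-associated degradation 2 rose and 3 fell, with a median of -0.02. Erlin1, of a membrane complex that removes activated calcium channels, rose by 0.49, and Faf2, which recruits the segregase p97, by 0.30. The ligase Rnf103, Sdf2, a relative of Sdf2l1, and the ubiquitin-conjugating enzyme Ube2g2 fell by 0.30, 0.26 and 0.22. No gene passed limma's test among 14 of glycan trimming and the calnexin cycle (3 had an unadjusted p under 0.05), or among 24 of COPII export (6 had). Of all 14291 tested genes 4272 had an unadjusted p under 0.05. The medians of these 2 lists were 0.10 and 0.03.

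Of 18 collagen folding genes P4ha2, a prolyl hydroxylase subunit, rose by 0.26 and none fell (median 0.02). In the list of sensor processing and other bZIP factors 2 of 19 rose, with a median of -0.03. They were Nfyb, an NF-Y subunit that binds CCAAT, by 0.34 and Creb3l1, a membrane-bound factor related to ATF6, by 0.24.

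The list for the PERK branch and the integrated stress response, which other kinases than PERK can also start, held more called genes. Limma called 17 of its 25 tested genes higher (68%) and none lower, leaving 8 that did not pass, with a median change of 0.34. Over all tested genes 9.56% rose and 6.35% fell. The leading 3 of the list were Slc7a11, the cystine transporter, at 3.54, Ddit3 (CHOP) at 1.83 and Trib3, a pseudokinase induced by CHOP, at 1.81. In the same arrays the 33 ER genes had a median of 0.05. The list and the members were chosen with earlier results of these data known, which limits this contrast.

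Hypoxia genes were counted because Ero1l is also a known target of hypoxia-inducible factors. Of 19 tested 8 rose (42.1%) and none fell, where 9.56% and 6.35% of all tested genes did. The other 11 did not pass, and the median of the list was 0.25. Ddit4 (REDD1) rose by 0.95, Hmox1 (heme oxygenase) by 0.79 and Slc2a1 (GLUT1) by 0.76. Ddit4 stands on the stress response list too and P4ha2 on the collagen list. Their part in the rise of Ero1l was not tested.

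**Figure D4:**
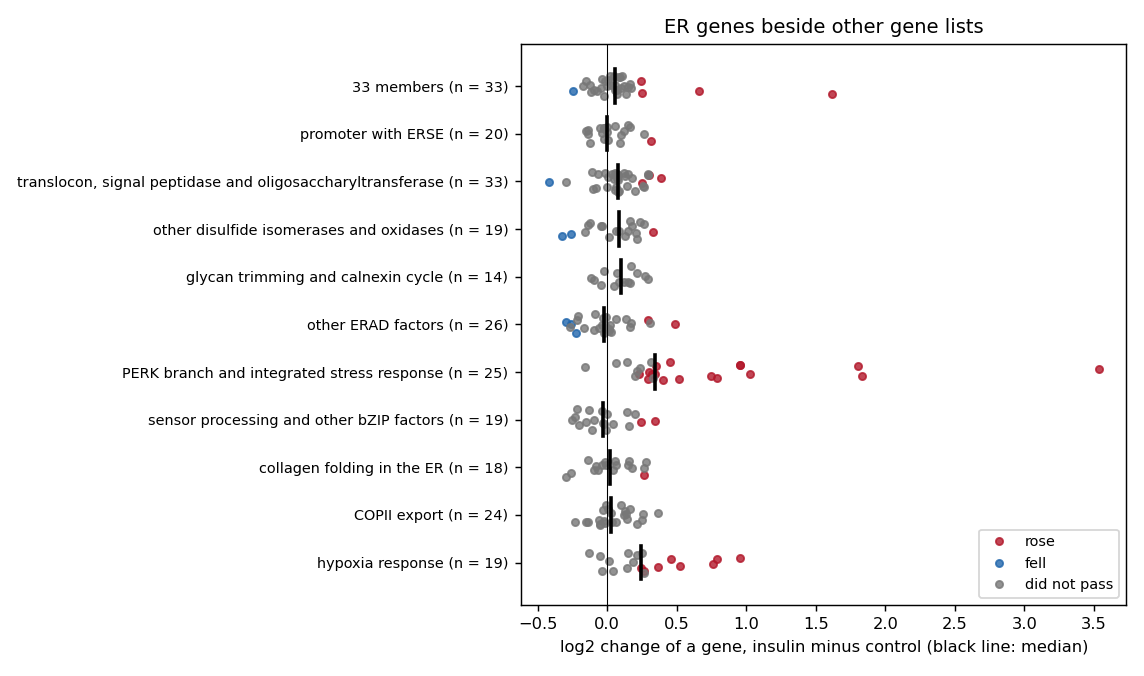
Log2 change, insulin minus control, of the tested genes of each list, one point per gene, with a black line at the median. The 33 members centre at 0.05 and the genes with an ERSE at -0.003, while the stress response list centres at 0.34 and the hypoxia list at 0.25.

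Of 16 myotube markers 6 fell, none rose and 10 did not pass, where 6.35% of all tested genes fell and 9.56% rose. Largest among those that fell were Actn2, Ryr1 and Tnni1 at -0.53, -0.50 and -0.39. The mean level of the 16 was 12.4 to 12.5 on insulin arrays, against 12.6 to 12.8 on controls. All 8 cell cycle genes rose (Mki67 by 0.92, Bub1 by 0.83, Mcm3 by 0.76), with a mean level of 11.5 to 11.6 against 10.9 to 11.0. Of 5 tested myoblast markers Cd34, Met and Myf5 rose by 0.55, 0.51 and 0.29, with list means of 9.42 to 9.48 against 9.15 to 9.21, while Pax7 lay at 7.86 with insulin and 7.89 in controls. Among fibroblast markers Dcn fell by 0.57 and 6 did not pass, with list means of 9.33 to 9.40 against 9.44 to 9.53. No adipocyte, osteoblast, leukocyte or endothelial marker passed, and the means of these lists lay between 6.48 and 7.84 on all arrays. Adipoq (5.28 with insulin and 5.43 in controls), Lyz2 (5.32 and 5.23) and Emcn (5.32 and 5.28) lay below the filter. Other markers of the same lists lay above it, among them Cfd (7.95 and 8.06), Cd14 (9.67 and 9.45) and Vwf (7.65 and 7.67). Whether such cells were present was not tested. The part of these shifts in the changes of ER genes was not tested.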

How the data were processed

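The deposited values were log2 values of 1 per probe set and array, made by the authors with RMA per the submitters' processing notes, which give no version or settings. RMA by design corrects background, normalizes quantiles and summarises probes. Base 2 is an inference from the spread of values (3.15 to 14.6). Scanner intensities were not used here, so background and saturation were not judged. Names came from the platform annotation held by GEO, in which 212097 probe sets had exactly 1 symbol.

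A gene's value was the median of its probe sets. Genes under the 30th percentile of mean level were left out, as were probe sets under theirs (7.36). The difference insulin minus control came from limma 3.58.1 in R 4.3.3 (lmFit, eBayes, two-sided, no covariates), with p-values adjusted by Benjamini-Hochberg over all 14291 genes or 169103 probe sets. Promoters were searched with Python 3.11.15. Fits were tested on simulated data, where 85% of genes changed by 0.5 on the log2 scale and 100% of those changed by 1 were recovered, and 8.42% of the genes called were false. That simulation shifted 100 genes at each size and gave every gene independent noise, so its shares may not hold for these arrays. Smaller changes, such as those of Edem2, Sec61b and Os9, were not simulated.

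The members and lists were chosen with earlier results of these data known. Every member is named, and from each other list up to 3 genes that rose most and 3 that fell most. Pax7, the dim markers and the brighter ones set beside them were named after their values were seen. Only 3 arrays per group limit the precision. Alternatives changed the filter, the scaling, the summary of probe sets, the variance prior, array weights, a replicate block and each array in turn.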

Additional observations from a re-analysis of the deposited data

How the results depend on the processing

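Ero1l (1.33 to 1.74) and Edem1 (0.49 to 0.72) passed under all 16 alternatives. Edem2 passed under 5, Sec61b and Os9 under 8 each, and Eif2ak3 (3), Atf6 (2), Canx, Creld2 and Edem3 (1 each) passed under some. The cause of these shifts was not tested. Members that rose, 4 as reported, were 2 with the replicate block and 2 with no filter, and 2 to 4 without single arrays. Members that fell, 1 as reported, were 0 with the replicate block, no filter or the brightest probe set, 2 with an intensity trend or array quality weights, 3 with the mean of probe sets, and 0 to 1 without single arrays. Genes called, 2274 as reported, were 5007 with array weights, 3436 with the mean of probe sets and 1046 to 2446 without single arrays (lowest without any insulin array or control 2). The members' median was 0.011 with the mean of probe sets and 0.022 with the brightest. Member probe sets that rose, 23 as reported, were 12 with the replicate block, 49 with array weights and 11 to 21 without single arrays, lowest without the same arrays. Those that fell, 0 as reported, were 4 with the 50th percentile filter, 3 with the trend and 16 with array weights. Members with unequal probe sets, 1 as reported, were 2 with the replicate block, no filter or the 50th percentile filter, 9 with array weights, 0 with probe sets taken relative to their gene (added after seeing the data), and 1 to 2 without single arrays (2 without any control). Deviations of arrays of the same number from their group means had correlations of 0.025, 0.19 and -0.00036. Arrays of different numbers gave -0.10 to 0.069. With so few arrays these values cannot show whether the same number marks a real pair. Both paralogue differences kept their sign throughout.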
